A study of Mus musculus with 7 samples.

Results

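The 10 genes described here are parts of the circadian clock: the period genes Per1, Per2 and Per3, the cryptochromes Cry1 and Cry2, the nuclear receptors Nr1d1 and Nr1d2, the bZIP factors Dbp and Tef, and Ciart. They were taken by name from a list, each from the probe set with 1 gene symbol and the highest mean over the arrays, and all 10 were found among the 19938 genes measured. The arrays, 7 one-colour Affymetrix hybridisations of total RNA, measured intestine of Atg4b knock-out (KO) and wild-type (WT) mice, all on a C57Bl6/129Sv background and 3 months old. Atg4b is a protease of the autophagy pathway, and the sources used here do not say how the allele was made. Control ileum and control colon gave 1 array for each genotype. Colon of mice that drank dextran sulfate sodium (DSS), which injures the colonic epithelium, for 7 days and then water for 3 days gave 1 WT array and 2 KO arrays. The comparison of interest was whether clock genes stood at different levels in DSS and control colon, as a check of the time of day at sampling; the sources used here do not state the hour of killing.

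The mammalian clock is a transcriptional feedback loop. ARNTL (BMAL1) with CLOCK or NPAS2 activates genes through E-box elements, among them the Per, Cry, Nr1d and Dbp genes, and the PER and CRY proteins then repress that activation. NR1D1 and NR1D2 (REV-ERB alpha and beta) repress Arntl, Nfil3 and other genes through ROR elements, and DBP and TEF, together with their antagonist NFIL3, act on D-boxes. In mouse peripheral tissues Nr1d1 and Dbp reach their peak during the day, Per1 and Per2 around dusk, Cry1 later in the night and Arntl towards its end, opposite to Nr1d1. The colonic epithelium and muscle both hold such clocks, and feeding and stress hormones can shift or induce several of these genes.

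Promoter windows of 300 bases, from 250 before to 50 after the annotated start, were available from RefSeq (GRCm38.p6) for 9 of the 10 genes, in 11 windows. No window was available for Per2. The windows below hold clock elements searched for. Ciart, Cry1 and Per1 passed the test between DSS and control colon described below, and Per3 did not. Nr1d1 passed too, but its window held none of these elements. The difference of Ciart was 1.57 on the probe set used and 0.64 on its other one. Whether the elements bear on the levels was not tested. The windows run 5′ to 3′ on the gene's strand, with the matches in capitals. In Ciart (chr3:95882179-95882478, minus strand), Cry1 (chr10:85185005-85185304, minus strand) and Per1 (chr11:69098699-69098998, plus strand) the letters CACGTG are E-boxes; in Per1 the letters TGACCT are the ROR core AGGTCA read from the other strand. In Per3 (chr4:151044616-151044915, minus strand) the letters TTATGTAA are D-boxes.
Ciart: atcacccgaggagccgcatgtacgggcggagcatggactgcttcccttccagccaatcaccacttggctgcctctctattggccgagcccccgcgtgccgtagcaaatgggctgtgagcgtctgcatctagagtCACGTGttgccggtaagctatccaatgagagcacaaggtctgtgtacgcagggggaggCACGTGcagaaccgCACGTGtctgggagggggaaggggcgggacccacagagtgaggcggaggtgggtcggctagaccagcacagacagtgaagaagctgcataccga
Cry1: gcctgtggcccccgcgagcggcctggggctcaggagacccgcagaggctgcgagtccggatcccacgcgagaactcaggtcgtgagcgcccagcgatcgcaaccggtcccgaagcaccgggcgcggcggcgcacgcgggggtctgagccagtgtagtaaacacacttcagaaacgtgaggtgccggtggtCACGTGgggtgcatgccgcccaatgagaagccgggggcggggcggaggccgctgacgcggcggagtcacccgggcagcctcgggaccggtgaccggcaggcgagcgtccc
Per1: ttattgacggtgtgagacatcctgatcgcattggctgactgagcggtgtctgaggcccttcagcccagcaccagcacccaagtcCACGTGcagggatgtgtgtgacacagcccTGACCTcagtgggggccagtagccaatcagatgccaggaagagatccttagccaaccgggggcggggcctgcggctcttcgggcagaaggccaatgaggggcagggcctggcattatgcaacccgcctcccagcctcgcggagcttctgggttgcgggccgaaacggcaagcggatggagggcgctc
Per3: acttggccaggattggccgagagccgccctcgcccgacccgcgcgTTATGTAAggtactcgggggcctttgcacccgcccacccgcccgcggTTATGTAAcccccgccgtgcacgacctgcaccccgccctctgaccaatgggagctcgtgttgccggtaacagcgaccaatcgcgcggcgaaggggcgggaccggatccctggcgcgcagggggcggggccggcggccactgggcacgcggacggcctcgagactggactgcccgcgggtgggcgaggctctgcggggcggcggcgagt

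Ciart carried 3 E-boxes, at positions -116, -58 and -44 relative to the start, and Cry1 and this Per1 window carried 1 each. Tef, whose level did not pass the test between DSS and control colon, also had 1 E-box in each of its 2 windows. E-boxes thus lay in 5 of the 11 windows, from 4 of the 9 genes, and in 7.15% of all 32851 windows of this length. The D-box, searched as TTATGTAA or TTACGTAA on both strands, was found in Per3 alone among these genes, with 2 matches, and in 1.06% of all windows. The ROR core AGGTCA was found in Per1 and Nr1d2 and in 16.3% of all windows, and the cyclic AMP element TGACGTCA in none of the 11 windows and in 1.79% of all. The windows of Nr1d1, Dbp and Cry2 held none of these letters.

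Intensities were analysed as log2 values; the lower quartile of all gene values was 5.78 and the median 7.33. Atg4b was at 7.35 to 7.72 on the 3 WT arrays and at 5.39 to 5.45 on the 4 KO arrays. Xist, which is expressed in females, was at 5.19 to 5.52 on the 4 control arrays and at 12.16 to 12.55 on the 3 DSS arrays, so that DSS and the sex seen in the RNA cannot be told apart for any gene below; this pattern went against the labelled sex on the 3 WT arrays. The 8 ileum markers had a summed intensity of 53110 to 67308 on the ileum arrays and of 653 to 739 on the colon arrays, and the 12 colon epithelium markers one of 63645 to 67645 in control colon and of 57662 to 62920 in DSS colon. With 1 array in 5 of the 6 groups, and no label stating that each array is a separate animal, the tests measure only the spread between these arrays.

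In DSS colon Cry1, Ciart, Per1 and Per2 rose and Nr1d1 fell, whereas the other 5 genes did not pass the test, Dbp and Tef having differences near 0. The differences ran from 1.57 log2 units above control colon, for Ciart on the probe set used, to 1.23 below it, for Nr1d1. The other Ciart probe set gave 0.64, and the widest rise of the other genes was 1.25, for Cry1. In limma (3 DSS against 2 control colon arrays, with genotype in the model) 4 of the 10 genes were called higher and 1 lower at an adjusted p under 0.05. Among all genes 7.20% were called higher and 3.43% lower (1436 and 684 genes; 1265 and 983 under quantile normalization). The median difference was -0.05 for the 10 genes and -0.01 for all genes.

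**Figure D1:**
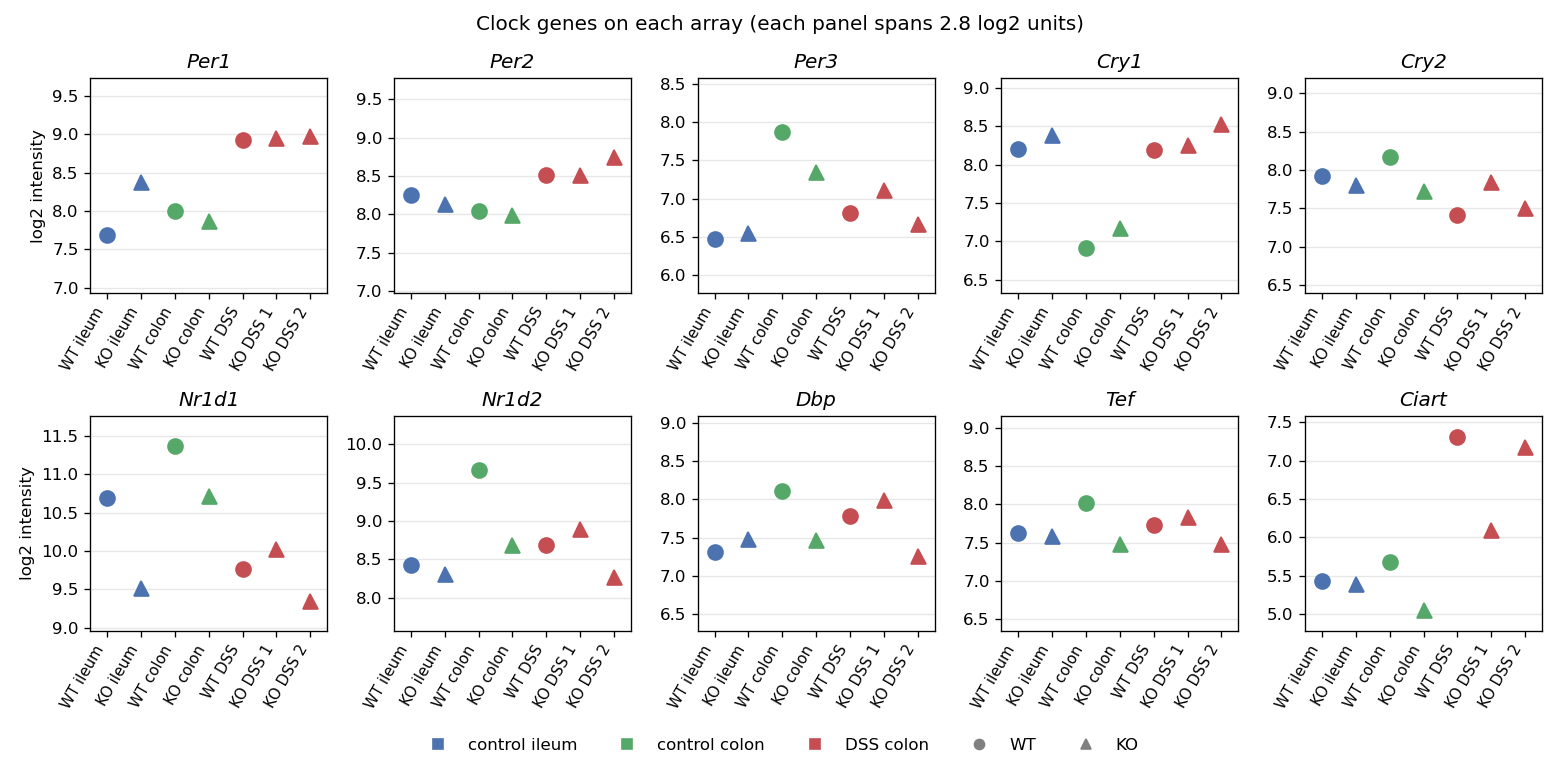
Log2 intensity (vertical axis) of each of the 10 clock genes on the 7 arrays (horizontal axis); colours mark control ileum, control colon and DSS colon, circles WT and triangles KO, and every panel spans the same number of log2 units. Each point is 1 array; in the panels of Cry1, Per1, Per2 and Ciart all DSS points lie above both control colon points, and in those of Nr1d1 and Per3 all lie below.

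Cry1, a cryptochrome that closes the repressing arm of the loop, had a log2 intensity of 6.92 in WT and 7.18 in KO control colon. In DSS colon it was 8.20 in WT and 8.26 and 8.53 in the KO replicates. Every DSS array lay above both control colons, and the gap was wider than the spread within either set. The DSS minus control difference was 1.25 ± 0.12 (SE; adjusted p = 0.00332), a 2.37-fold rise. The adjusted p was 0.0572 in a 6-group model (a mean for each group), 0.0520 without WT control colon and 0.0559 without KO control colon. The difference was 1.28 between the WT arrays and 1.08 and 1.36 for the 2 KO arrays.

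Of the period genes Per1 and Per2 rose and Per3 did not pass. Per1, which also responds directly to stress hormones and to cyclic AMP, was at 8.001 in WT and 7.87 in KO control colon. On the DSS arrays it was at 8.93 in WT and at 8.96 and 8.97 in KO, so that the 3 DSS values were nearly equal and stood well apart from the controls. Its difference was 0.99 ± 0.18 (adjusted p = 0.0245). Per2 rose less, by 0.57 ± 0.12 (adjusted p = 0.0321), from 8.05 and 7.995 in WT and KO control colon to 8.52 in WT and 8.51 and 8.75 in KO DSS colon. Again the groups did not overlap. Of 18 alternative fits of this comparison, Per1 passed in 12 and Per2 in 8, and both kept their direction in all 18. Per3 is a paralogue that is not required for rhythmicity. It was at 7.87 and 7.35 in WT and KO control colon and at 6.81 in WT and 7.12 and 6.68 in KO DSS colon. All 3 DSS values were below both controls, but the difference of -0.73 ± 0.20 did not pass (adjusted p = 0.0665). It passed in only 4 of 18 alternative fits. These used quantile normalization (adjusted p = 0.0459), arrays centred on their median (0.0481), no dim genes (0.0496) or no KO DSS replicate 1 (0.0148). In the last of these, 3549 genes were called in all, against 2120 with every array.

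Ciart, a repressor of the ARNTL-CLOCK complex also known as CHRONO, differed by 1.57 ± 0.32 on the probe set used (adjusted p = 0.0309) and by 1.10 on the mean of both its probe sets (adjusted p = 0.0179). The first value did not pass with a pseudocount of 16 (adjusted p = 0.0542). It was at 5.68 in WT and 5.06 in KO control colon, below the lower quartile on all 4 control arrays, where a difference may be understated. In DSS colon it was at 7.31 in WT and at 7.18 in KO replicate 2, but at 6.10 in KO replicate 1. The array holds 2 probe sets with its symbol, and they agreed in direction but not in size. Of the 20 nearest probe sets by number to the one used, 19 belong to genes of chromosome 10, while Ciart lies on chromosome 3; those around the other one, 10500272, all belong to chromosome 3. That second probe set was at 5.68 and 5.40 in WT and KO control colon and at 6.21 in WT and 6.05 and 6.15 in KO DSS colon. Its difference was 0.64 ± 0.10 (adjusted p = 0.0173 when all 21789 probe sets with 1 symbol were tested).

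Nr1d1, the REV-ERB alpha repressor, was the only one of the 10 called lower. It was at 11.36 in WT and 10.72 in KO control colon and at 9.76 in WT and 10.03 and 9.35 in KO DSS colon. The highest DSS value, in KO replicate 1, was 0.69 below KO control colon, and the DSS and control values did not overlap. The difference was -1.23 ± 0.29 (adjusted p = 0.0465), close to the threshold, and it did not pass under quantile normalization (adjusted p = 0.0536), with a pseudocount of 16 (0.0654) or with a variance trend and robust fit (0.0505). Its annotated span overlaps that of the thyroid hormone receptor gene Thra, which also fell (-0.95 ± 0.14, adjusted p = 0.0128); whether probes are shared was not tested. Nr1d2, which encodes the related REV-ERB beta, was at 9.66 in WT and 8.68 in KO control colon. In DSS colon it was at 8.69 in WT and 8.89 and 8.27 in KO, so that KO control colon lay within the DSS range. Its difference was -0.49 ± 0.26, with a 95% interval from -1.12 to 0.14 (adjusted p = 0.304).

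Dbp and Tef, the D-box activators whose transcripts follow the clock closely in most tissues, showed no difference past the threshold. Dbp was at 8.11 and 7.46 in WT and KO control colon and at 7.78 in WT and 7.99 and 7.26 in KO DSS colon. The control colons were further apart than either was from the DSS mean. Its difference was -0.08 ± 0.26, with an interval from -0.69 to 0.54 (adjusted p = 0.898). Tef was at 8.01 and 7.48 in control colon and between 7.48 and 7.83 in DSS colon, and its difference was -0.03 ± 0.17 (interval -0.43 to 0.36; adjusted p = 0.932). For Cry2, the second cryptochrome, the control colon values were 8.17 in WT and 7.73 in KO and the DSS values 7.42 in WT and 7.85 and 7.51 in KO. Its difference was -0.35 ± 0.19 (interval -0.80 to 0.10; adjusted p = 0.305).

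Counted by position alone, 4 of the 10 genes had every DSS array above both control colons, 2 had every DSS array below, and 4 overlapped. The same counts over all genes were 22.1% above and 18.0% below. The calls depended on single arrays. Without the WT control colon or without the KO control colon, 1 control colon array was left. The calls among the 10 genes were then lost, as were most calls among all genes. Without KO DSS replicate 2 or without WT DSS colon 1 was called, and this was Cry1 in both cases. In all, 800 and 526 genes were then called, against 2120 with every array. Without either ileum array 4 were called, Per2 no longer among them, with 1617 genes called in all. In the 6-group model 0 of the 10 were called in limma, with 297 genes called in all. The 5 genes called above kept their direction in each of these fits.

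**Figure D2:**
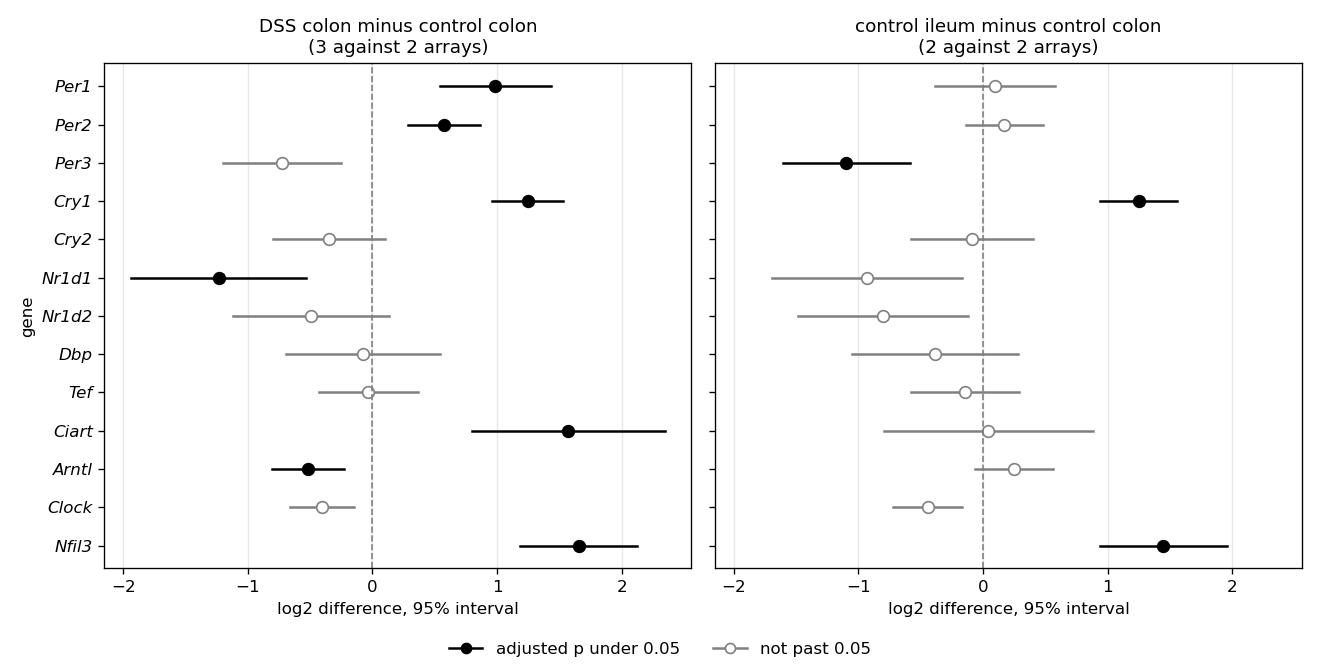
Log2 difference (horizontal axis) of DSS colon from control colon (left) and of control ileum from control colon (right) for the 10 clock genes and for Arntl, Clock and Nfil3; points are limma estimates, bars 95% intervals, and filled points have an adjusted p under 0.05. Both panels use the same 2 control colon arrays; Cry1 and Nfil3 are filled in both.

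Beyond the 10 genes, the rest of the pathway was read from lists of the loop's activators, ROR receptors, modifiers and outputs. Of the 2 measured activators, Arntl fell, by 0.52 ± 0.12 on the log2 scale (adjusted p = 0.0444). It was at 8.78 and 9.11 in WT and KO control colon and at 8.37 in WT and 8.38 and 8.65 in KO DSS colon. Clock was at -0.40 ± 0.11 (adjusted p = 0.0629), with 10.67 and 10.63 in control colon and 10.12 to 10.33 in DSS colon. Of the ROR receptors Rora and Rorb, 0 passed in limma, with -0.33 ± 0.22 and -0.22 ± 0.14. Of 14 measured modifiers 1 rose, against 7.20% of all genes: Nfil3, the D-box repressor that is itself under REV-ERB control and also induced in inflammation (1.65 ± 0.20, adjusted p = 0.0062). Its values were 7.14 and 6.60 in control colon and 8.33 in WT and 8.74 and 8.47 in KO DSS colon. Of 10 measured outputs 2 rose, against the same 7.20%: the tetraspanin Tspan4 (1.38 ± 0.18, adjusted p = 0.00818) and Nampt, the enzyme that makes an NAD precursor and is also a secreted cytokine (1.30 ± 0.16, adjusted p = 0.00705). The other outputs, such as the deubiquitinase Usp2 (0.34 ± 0.26, adjusted p = 0.475) and the glucocorticoid target Tsc22d3 (0.38 ± 0.18, adjusted p = 0.260), did not pass.

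Means per array are given as a description, for Arntl and Clock and for the listed genes without Cry1, which peaks later in the night than Per1 and Per2. Each gene was expressed as its deviation from its own mean over the 7 arrays. Averaged over the 9 genes other than Cry1, the deviation stood at 0.36 for WT and -0.15 for KO control colon, and 0.14 in WT and 0.17 and -0.03 in KO DSS colon. All 3 DSS values thus lay between the control values, and the DSS mean differed from the control mean by -0.01. Averaged over Arntl and Clock it stood at 0.15 for WT and 0.29 for KO control colon and -0.23 in WT and -0.33 and -0.12 in KO DSS colon, a mean difference of -0.44 with no overlap. The 9 genes include repressors of the loop and the D-box activators Dbp and Tef, and their mean combines the higher Per1, Per2 and Ciart with the lower Nr1d1. Ciart enters it with its highest-mean probe set, whose DSS difference was 1.57 against 0.64 on the other. Of the genes whose usual peak time is given above, Nr1d1 and Arntl were lower in DSS colon and Per1, Per2 and Cry1 higher. Dbp was near its control level. Per3 lay below both control colons on every DSS array, opposite to Per1 and Per2, though its difference of -0.73 did not pass. Nr1d2 (-0.49), Cry2 (-0.35) and Tef (-0.03) did not pass either. Whether a difference in sampling time contributed was not tested.

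**Figure D3:**
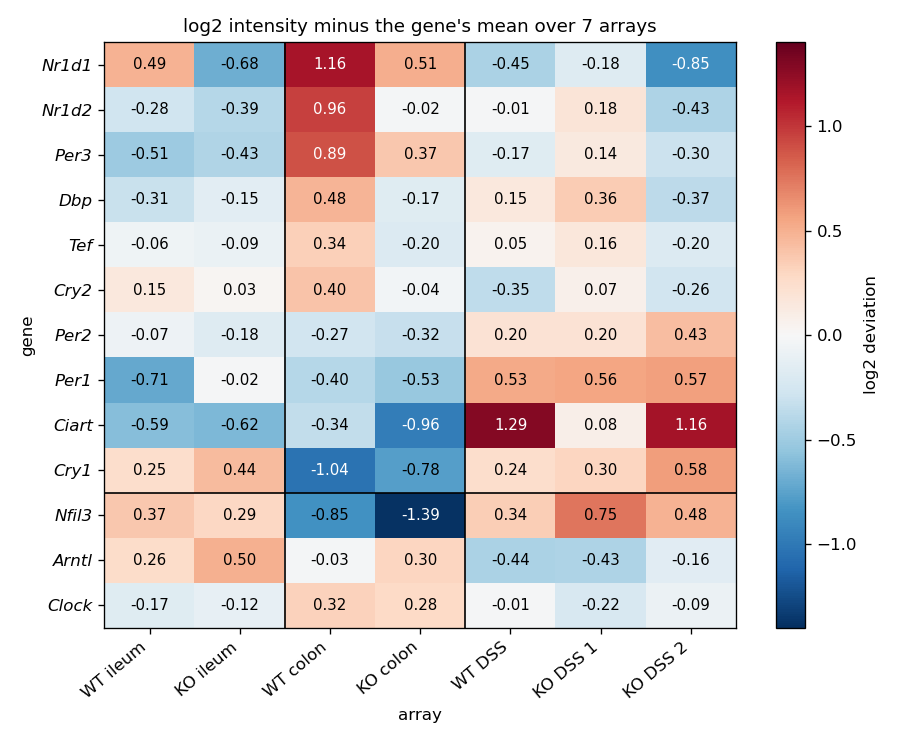
Deviation of each gene's log2 intensity from its own mean over the 7 arrays (colour and printed value) for the 10 clock genes, above the horizontal line, and for Nfil3, Arntl and Clock, below it; columns are arrays, and vertical lines separate ileum, control colon and DSS colon. Nr1d1, Nr1d2, Per3, Dbp, Cry2 and Tef are highest in WT control colon (1.16, 0.96, 0.89, 0.48, 0.40 and 0.34). Cry1 is lowest in the 2 control colons (-1.04 and -0.78).

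Markers of other cell types changed with DSS on the same arrays. In whole tissue, fewer cells of a type and less RNA per cell cannot be told apart. The summed intensity of 14 smooth muscle markers came to 43295 on the WT and 42124 on the KO control colon array, and to 9375 in WT and 29211 and 14502 in KO DSS colon. All 14 had negative differences and 3 passed, where 3.43% of all genes were called lower. Des fell by 1.97 (adjusted p = 0.0377) and Myh11 was at -1.67 (adjusted p = 0.0681), and their lowest values on any array were 9.46 and 9.25. The 10 leukocyte markers summed to 7523 and 7984 in control colon and to 9556 to 13475 in DSS colon, and 6 of them rose, where 7.20% of all genes did, Ptprc by 1.07 (adjusted p = 0.0300). Ly6g made up 5797 and 5729 of the control sums, was at 31 to 35 in ileum and did not pass (0.39, adjusted p = 0.129). Without it, a choice made after its values were seen, the sums were 1726 and 2255 in control and 3413 to 4603 in DSS colon. Of the 12 colon epithelium markers 1 was higher and 2 were lower (7.20% and 3.43% of all genes), Aqp8 among them (-0.96, adjusted p = 0.0183). Of 7 adipocyte markers 1 was lower, and none of 6 neuron and glia markers or 8 ileum markers passed in limma (adipocyte sums 1501 to 3821 in control and 763 to 1740 in DSS colon; neuron and glia sums 1077 to 1091 and 646 to 1142).

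KO DSS replicate 1 had more muscle signal than the other DSS arrays, a mean log2 intensity over the muscle list of 10.60 against 9.61 in KO replicate 2 and 9.04 in WT. On this array Nr1d1 was the highest of the 3, at 10.03, and Ciart the lowest, at 6.10 on the probe set used. Nr1d2 (8.89), Per3 (7.12), Dbp (7.99), Tef (7.83) and Cry2 (7.85) were also the highest of the 3 there, and Per2 (8.51) the lowest. On the second Ciart probe set, 10500272, the 3 DSS arrays were at 6.05, 6.15 and 6.21. Per1 was at 8.96 and Cry1 at 8.26 on the same array. The muscle mean is itself lower in every DSS array than in control colon. With it as a covariate 0 of the 10 genes passed in limma, and most calls among all genes were lost. The differences were then 1.06 for Cry1, 0.78 for Per1, 0.55 for Per2, 0.64 for Ciart and -0.25 for Nr1d1. The part of muscle in these differences was not otherwise tested.

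**Figure D4:**
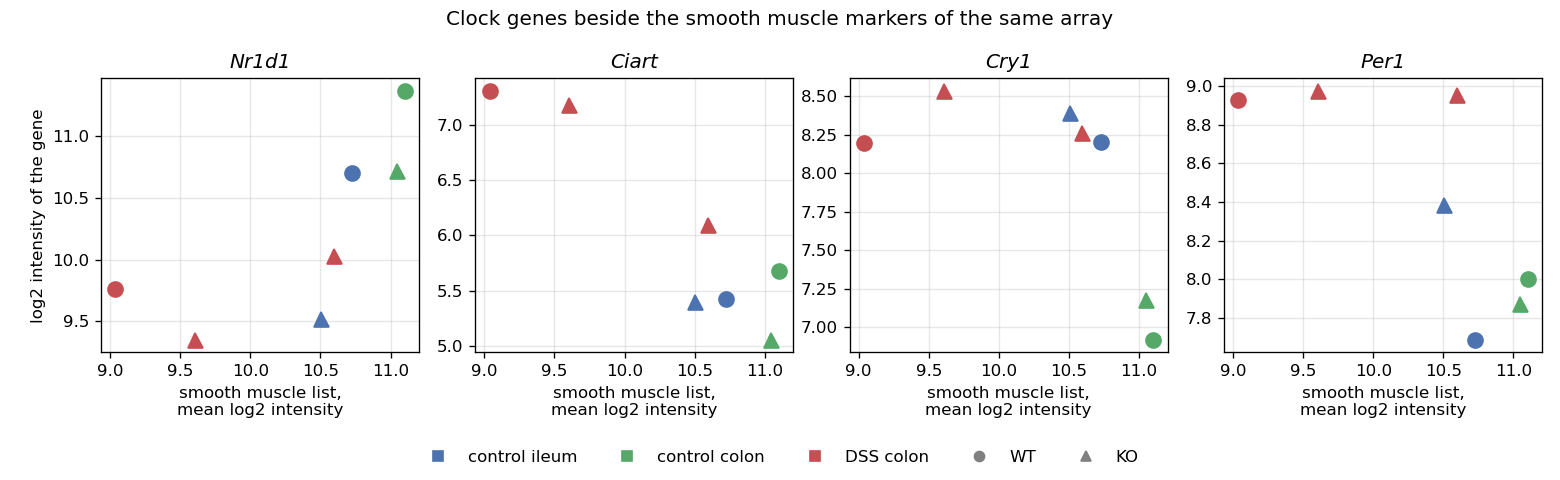
Log2 intensity of Nr1d1, Ciart, Cry1 and Per1 (vertical axes, each with its own range) against the mean log2 intensity of 14 smooth muscle markers (horizontal axis) on the 7 arrays; colours and symbols are those of the level plot, 1 point per array. KO DSS replicate 1, at a muscle mean of 10.60, is at 10.03 for Nr1d1, 6.10 for Ciart (probe set with the highest mean; 6.05 on the other), 8.26 for Cry1 and 8.96 for Per1.

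Between the tissues, Cry1 rose and Per3 fell in control ileum relative to control colon (2 against 2 arrays). Cry1 was at 8.20 in WT and 8.39 in KO ileum, 1.25 ± 0.13 above colon (adjusted p = 0.00228), and it passed under all 14 alternatives run for this comparison. The 6-group model and the covariates, run for DSS against control colon, were not among them. Per3 was at 6.47 in WT and 6.55 in KO ileum, with a difference of -1.10 ± 0.21 (adjusted p = 0.0252). Per3 did not pass without any one of the 4 control arrays (adjusted p from 0.0513 to 0.154). So 1 of the 10 genes was higher and 1 lower, against 5.94% and 3.22% of all genes. Nr1d1 (-0.93 ± 0.32, adjusted p = 0.147) and Nr1d2 (-0.80 ± 0.28, adjusted p = 0.160) did not pass; Nr1d1 did without KO DSS replicate 1 (adjusted p = 0.0235). The intervals of Per1 (-0.38 to 0.58), Per2 (-0.14 to 0.48), Dbp (-1.05 to 0.28) and Ciart (-0.80 to 0.88) all included no difference. Of the wider lists the modifiers Nfil3 (1.45 ± 0.21), Fbxl21, an F-box protein that targets cryptochromes (2.32 ± 0.14), and the kinase subunit Csnk2a1 (0.46 ± 0.11) were higher in ileum. Their adjusted p was 0.00894, 0.000237 and 0.0449. Csnk2a1 lies on chromosome 2, like Cry2. Its probe set number, 10350819, is nearer to that of Per2 on chromosome 1 (10356601) than to that of Cry2 (10485170). Whether it measures Csnk2a1 alone was not tested. Fbxl21 lay between 5.52 and 5.84 on the 5 colon arrays, near the lower quartile. Markers of other cell types also differed between the tissues. Of 7 adipocyte markers 3 were higher in ileum, with a median difference of 1.68, and 12 of 14 muscle markers had negative differences, of which 0 passed in limma. The adipocyte sums were 5768 and 4989 in ileum against 3821 and 1501 in colon, and the muscle sums 31289 and 27455 in ileum; their part was not tested. The ileum and DSS comparisons share both control colons, so their values are not independent: Cry1 stood at 1.25 in each, Nfil3 at 1.45 and 1.65, Per3 at -1.10 and -0.73, and Per1 at 0.10 and 0.99, the ileum value first.

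Loss of Atg4b gave no call among the 10 genes. In limma 0 passed over the 3 conditions (4 KO against 3 WT arrays; 0 at an unadjusted p under 0.05, and 0 with a variance trend and robust fit), where 1 gene in all, 0.00502%, was called. The widest value was that of Nr1d1, at -0.57 ± 0.25, with an interval from -1.16 to 0.02 (adjusted p = 0.989). It was lower in KO than WT in ileum (9.52 against 10.70) and in control colon, but in DSS colon the WT value lay between those of the KO replicates. Cry1 was at 0.22 ± 0.10 (interval -0.02 to 0.45; adjusted p = 0.989) and was higher in KO in each condition. For KO against WT within DSS colon 0% of all genes were called (776 at an unadjusted p under 0.05, 10 with a variance trend and robust fit), and Ciart had the widest value of the 10 (-0.67 ± 0.44, adjusted p = 1). Without KO DSS replicate 2, Ciart was at -1.21, a comparison of 1 array with 1 whose spread has to be taken from the other groups. On probe set 10500272 these 2 arrays were at 6.05 in KO and 6.21 in WT. For the interaction of genotype and DSS 0% were also called (639 at an unadjusted p under 0.05, 2 with the trend and robust fit). Nr1d1, at 0.84 ± 0.40, had the widest interaction value, with an interval from -0.15 to 1.83 (adjusted p = 1.00).

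Single pairs of arrays, given without a test, show how far these genes differed between arrays of 1 condition. In control colon 9 of the 10 were lower in KO than in WT, all but Cry1, with a median of -0.52 against -0.05 for all genes. The differences of Nr1d2 (-0.98), Nr1d1 (-0.65), Dbp (-0.65), Ciart (-0.62), Tef (-0.53) and Per3 (-0.52) were the widest, and none reached 2-fold, as 0.461% of all genes did. The adipocyte markers also differed between these 2 arrays, with mean log2 intensities of 8.47 in WT and 7.03 in KO, while the muscle means were 11.10 and 11.05; their part was not tested. In ileum Nr1d1 differed by -1.17 and Per1 by 0.69 between KO and WT, while Dbp differed by 0.16 and Tef by -0.03. The 2 KO DSS replicates, the only pair of 1 group, differed by 0.73 for Dbp, 0.68 for Nr1d1, 0.62 for Nr1d2 and 0.44 for Per3, with replicate 1 higher, and by 1.08 for Ciart, with replicate 2 higher. On the second Ciart probe set, 10500272, they were at 6.05 and 6.15. For Per1 they differed by 0.02.

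The profiles of the 10 genes over the 7 arrays were compared pair by pair. The root mean square difference between the centred log2 values of Dbp and Tef was 0.16, the smallest of any pair. That of Per3 and Nr1d2 was 0.19, of Cry2 and Tef 0.19 and of Per1 and Per2 0.33. The largest, 1.35, was between Nr1d1 and Ciart, on the Ciart probe set whose neighbours by number belong mostly to chromosome 10. Cry1 was nearer to Per2 (0.43) than to Cry2 (0.75). Among 10082 other genes with a mean above the median, Tef ranked 4 in nearness to Dbp and Nr1d2 ranked 167. Farther away, Cry2 ranked 1714, Per2 6793, Per1 8438, Nr1d1 8890 and Cry1 9371. Per3 and Ciart had means below the median and were not ranked. The nearest genes outside the list were Angel1 (0.13), Snx33 (0.15), Dusp3 (0.15), Sox21 (0.17) and Dusp23 (0.17); such a rank favours genes that vary little, as Dbp did (SD 0.33).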

How the data were processed

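Total RNA was isolated with RNeasy kits and labelled by the Affymetrix sense target method, as the labels' protocols say. The authors deposited 1 linear intensity per probe set and array; the sources used here state neither their summary nor their normalization. Array medians of these intensities lay between 121.4 and 126.45, so they were taken as normalized, and log2 values were computed here. An unstated step that equalised arrays would hide a shift shared by all genes. The array annotation names 1 symbol for 21789 of 35512 probe sets, several for 1621 and none here for 12102; the highest-mean probe set stood for each of 19938 genes.

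Models were fitted across all genes with limma 3.58.1 in R 4.3.3 (lmFit, eBayes), p-values being adjusted over all genes (Benjamini-Hochberg) and called under 0.05. The first held genotype and 3 conditions (DSS colon, control colon, control ileum), with 3 residual degrees of freedom; the second let the genotype effect differ in DSS colon, with 2. The value after ± is the fit's standard error, on the log2 scale, and intervals are 95%. All 10 members were tested in every comparison; named are the members and, of the wider lists Arntl, Clock and those that passed, with a few others as examples chosen after their values were seen. Some genes of the wider lists were not analysed here. Members and lists were chosen with earlier results of these data known. The scripts were tested on simulated data. Promoter letters were matched exactly on both strands. Alternatives covered normalization, filters, probe sets, the variance model, a pseudocount, the model, covariates and leaving out each array. Figures were drawn with matplotlib 3.10.9.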

Additional observations from a re-analysis of the deposited data

Results flagged for a closer look

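Tef was singled out because its DSS difference had opposite signs in the genotypes: it was -0.29 in WT (1 array against 1) and 0.35 and 0.00081 in the 2 KO arrays. The difference between the genotypes was not tested on these pairs; the interaction in limma was 0.21 ± 0.30 (adjusted p = 1.00). The second KO value is close to 0.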

How the results depend on the processing

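For DSS against control colon the 5 called members kept their direction in every alternative that gave them a value, but calls were lost. A pseudocount of 16 left 3 members called, with 2004 genes called in all. The 6-group model and the smooth muscle covariate left 0 members each, with 297 and 296 genes called in all. Leaving out 1 array gave 0 to 6 members and 183 to 3549 genes. With the muscle covariate Cry2 (0.18), Dbp (0.40), Nr1d2 (0.13) and Tef (0.30), none of them called before, changed sign. For ileum against colon, leaving out 1 array gave 1 to 3 members and 660 to 2418 genes. For KO against WT it gave 0 to 1 genes, and Per2 changed sign under quantile normalization (0.036) and with centred arrays (0.0097). Within DSS colon it gave 0 to 538 genes and 0 to 1 members, and for the interaction 0 to 279 genes; a variance trend and robust fit gave 10 and 2. Uncalled values that changed sign when 1 array was left out had these log2 ranges: Dbp -0.42 to 0.21 and Tef -0.30 to 0.18 for DSS; Ciart -0.26 to 0.35, Per1 -0.27 to 0.46, Cry2 -0.36 to 0.18 and Tef -0.38 to 0.094 for ileum; Per1 -0.035 to 0.32, Per2 -0.078 to 0.043, Cry2 -0.28 to 0.098 and Per3 -0.22 to 0.086 for KO against WT; Per3 -0.13 to 0.31, Dbp -0.52 to 0.21, Nr1d1 -0.41 to 0.27, Nr1d2 -0.42 to 0.20, Per2 -0.0028 to 0.23 and Tef -0.25 to 0.11 within DSS colon; and Per1 -0.66 to 0.16, Cry1 -0.17 to 0.11, Dbp -0.32 to 0.49, Tef -0.036 to 0.46 and Ciart -0.88 to 0.20 for the interaction. The cause was not tested. No paired analysis was run, because the sources used here do not state which arrays share an animal. Control ileum and control colon carry the same labelled sex within each genotype, and whether they share an animal is not known. Genotype was a term in both models. The small number of arrays limits the precision.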
